A study of Mus musculus with 12 samples.

Results

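Mitochondrial ribosomal protein genes were taken from the counts of sorted mouse osteoblasts as every gene whose symbol is Mrpl or Mrps followed by a number and at most one letter. This rule found 78 of the 32288 genes and transgenes counted, 49 named for the large subunit (*Mrpl*) and 29 named for the small subunit (*Mrps*). The rule used names alone and no measured value.

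Mitochondria hold their own ribosomes, which translate the few mRNAs of the mitochondrial genome into core subunits of the respiratory chain and of ATP synthase. All proteins of these ribosomes are encoded in the nucleus, made in the cytosol and imported, whereas the ribosomal RNAs come from mitochondrial DNA. c-Myc is a transcription factor known for raising genes of ribosome production and of mitochondrial biogenesis in proliferating cells, and osteoblasts are secretory cells that make large amounts of type I collagen.

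Bulk RNA-seq had been run on mGFP+ cells, depleted of CD31+, CD45+ and TER119+ cells and sorted from the metaphysis of distal femurs and proximal tibias of tamoxifen-treated *Osx-CreERT2*; *mTmG* mice on a mixed C57BL/6 and 129 background. *Osx-CreERT2* is a tamoxifen-dependent recombinase driven by the promoter of *Osx* (*Sp7*), a gene of the osteoblast lineage, and recombination switches the membrane protein from tdTomato to GFP. All 12 libraries carried these alleles and this treatment. Juvenile *Osx*+ osteoblasts (4 libraries, 3 weeks of age) and adult *Osx*+ osteoblasts (4 libraries, 8 weeks) each came from 2 pooled males, with the bone cut 2 mm below the growth plate 2 days after tamoxifen on 3 consecutive days. *c-Myc*-induced osteoblasts (2 libraries) also carried LSL-tTA and Col1a1::TetO–c-Myc, so that recombined cells express c-Myc, and *c-Myc* + *R172H* osteoblasts (2 libraries) carried Trp53-LSL-R172H as well, a mutant p53 allele. These induced mice were of both sexes per the labels and the study's methods of cell preparation. Elsewhere the methods name males alone for RNA-seq. The induced mice were titled 3 weeks but described as 5 weeks old at collection. They received tamoxifen on 2 consecutive days and were sampled 7 days later with a cut at 5 mm. Per the methods, mice with such a tet-OFF transgene, or their pregnant mothers, drank doxycycline or tetracycline, stopped 2 weeks or 1 week before analysis, to keep the transgene silent. Tetracyclines are also known to inhibit mitochondrial ribosomes. The number of induced mice in a library was not given. Induction of c-Myc, earlier tetracycline treatment, age at collection, length of bone taken, tamoxifen schedule and, if both sexes were used, sex therefore cannot be told apart in any comparison of an induced group with juvenile controls.

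Total counts ranged from 9066154 to 15684412 per library. *Myc* itself was at 39.8 to 52.2 CPM (counts scaled to the effective size of each library) in the 8 control libraries and at 624 to 748 CPM in the 4 induced libraries. Of 8 osteoblast markers, *Sp7* and *Runx2* among them, 8 fell with *c-Myc* (6 by library totals). All 8 were called lower, against 25.0% of all genes tested. By library totals 1116 of 12588 genes were called lower. With *c-Myc* + *R172H* over *c-Myc*, 2 of 8 osteoblast and 1 of 5 marrow stromal markers were called lower, against 0.461% of all genes. The summed level of 8 chondrocyte markers was 8383 to 24799 CPM in juvenile and 32966 to 119961 CPM in adult libraries. It was 340 to 531 CPM in *c-Myc* and 160 to 162 CPM in *c-Myc* + *R172H* libraries. Marrow stromal markers summed to 739 to 906 CPM in juvenile, 161 to 247 CPM in *c-Myc* and 130.2 to 147 CPM in *c-Myc* + *R172H* libraries, and osteoclast markers to 203 to 332, 84.0 to 104 and 52.2 to 52.3 CPM. Blood cell markers summed to 1.37 to 5.70 CPM in juvenile and 7.09 to 12.3 CPM in adult libraries. They summed to 10.7 and 12.02 CPM in *c-Myc* and 8.51 and 7.59 CPM in *c-Myc* + *R172H* libraries. Of 3 blood cell markers tested, 1 was called higher over juvenile in each induced group, against 28.4% and 30.4% of all genes. Endothelial and skeletal muscle markers summed to at most 3.24 CPM in any library. *tdTomato*, the reporter of cells without recombination, was at 0.695 to 8.68 CPM in juvenile and 28.9 to 34.5 CPM in induced libraries, and was called higher in both induced groups. Per the methods the c-Myc transgene also carries *mCherry*, another fluorescent protein, and whether its reads were counted as *tdTomato* was not tested. *EGFP* was at 285 to 573 CPM in juvenile and 369 to 405 CPM in induced libraries and was not called in either induced group. *Col1a1*, *Col1a2* and *Gm26917* took 57.1 to 65.3% of the counts of juvenile libraries but 35.2 to 46.1% of those of induced libraries, so values were scaled by TMM, a method that centres the bulk of the genes. Scaled by library totals instead, the median log2 fold change of all genes tested moved from 0.04 to 0.87 in *c-Myc* over juvenile and from 0.08 to 1.11 in *c-Myc* + *R172H* over juvenile, and the members are described below relative to the TMM scale. In bulk libraries fewer cells of a type and less RNA per cell cannot be told apart, and the part of cell composition in the results was not tested.

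A promoter window of RefSeq (GRCm38.p6, 250 bases before and 50 after the gene start) was found by symbol for 69 of the 78 members. The windows of *Mrpl4*, *Mrpl13*, *Mrpl15*, *Mrpl19*, *Mrpl38*, *Mrpl54*, *Mrps28*, *Mrps34* and *Mrps35* were not used here. Both strands were searched for 4 motifs, chosen with results of these data known: the E-box bound by c-Myc and its partners (CACGTG), the core palindrome of NRF1 sites, and the core letters of sites for ETS factors such as GABP (CCGGAAG) and YY1 (AAGATGGC), factors known for regulating nuclear genes of mitochondria. None of these motifs contains another, but the end of the ETS motif can overlap the start of the YY1 motif. Several windows were found for 3 members, and a match in any window of a gene counted. The ETS motif stood in a window of 26 of 69 members (37.7%). This compares with 20.4% of the 9808 genes with a window that were tested with *c-Myc* and 9.93% of all 27025 genes with a window. The YY1 motif stood in 12 (17.4%), against 5.35% and 3.19%. The E-box stood in a window of 5 members (7.25%), *Mrpl2*, *Mrpl20*, *Mrpl36*, *Mrpl37* and *Mrps18c*, against 11.99% of the tested genes with a window and 8.09% of all. The NRF1 motif stood in a window of 3 (4.35%), *Mrpl9*, *Mrpl32* and *Mrpl39*, against 2.35% and 1.07%. Of the members with a window, 53 were called higher with *c-Myc* and 16 were not, and the ETS motif stood in 17 and 9 of them, the YY1 motif in 11 and 1, the E-box in 4 and 1 and the NRF1 motif in 1 and 2. These are matches of letters, not measured binding. 5 windows are shown because their genes carry the results below: *Mrps9* and *Mrps27* had the largest rises with *c-Myc*, *Mrpl12* had the highest level per kb after induction, *Mrpl52* had the highest level per kb in controls and did not pass the test, and *Mrps18c* was a named member with an E-box. Capitals mark the motifs as they read on the gene's strand, so that CTTCCGG is the ETS motif of the other strand. The *Mrps27* window (chr13:99344536-99344835, + strand) held an ETS and a YY1 motif, that of *Mrpl52* (chr14:54426659-54426958, + strand) 2 ETS motifs, and that of *Mrps18c* (chr5:100798509-100798808, + strand) an E-box and an ETS motif. Those of *Mrps9* (chr1:42850983-42851282, + strand) and *Mrpl12* (chr11:120484387-120484686, + strand) held none of the 4.
Mrps9: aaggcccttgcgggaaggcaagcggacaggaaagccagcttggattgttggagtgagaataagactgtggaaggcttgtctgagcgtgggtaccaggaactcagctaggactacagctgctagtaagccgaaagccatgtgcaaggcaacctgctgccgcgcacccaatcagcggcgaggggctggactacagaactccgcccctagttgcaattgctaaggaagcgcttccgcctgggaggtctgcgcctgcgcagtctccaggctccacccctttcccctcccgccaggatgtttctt
Mrps27: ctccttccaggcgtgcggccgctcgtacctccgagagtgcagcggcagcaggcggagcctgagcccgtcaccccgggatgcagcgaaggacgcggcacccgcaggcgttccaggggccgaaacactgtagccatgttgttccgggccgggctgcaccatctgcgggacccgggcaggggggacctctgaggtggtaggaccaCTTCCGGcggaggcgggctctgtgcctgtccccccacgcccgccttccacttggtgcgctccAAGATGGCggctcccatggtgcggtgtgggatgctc
Mrpl12: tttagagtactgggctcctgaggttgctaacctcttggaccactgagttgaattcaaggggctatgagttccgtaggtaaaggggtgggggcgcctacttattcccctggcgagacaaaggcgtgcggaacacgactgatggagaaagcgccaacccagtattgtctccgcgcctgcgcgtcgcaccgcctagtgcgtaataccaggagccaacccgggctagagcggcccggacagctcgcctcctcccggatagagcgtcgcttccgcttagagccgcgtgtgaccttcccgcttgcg
Mrpl52: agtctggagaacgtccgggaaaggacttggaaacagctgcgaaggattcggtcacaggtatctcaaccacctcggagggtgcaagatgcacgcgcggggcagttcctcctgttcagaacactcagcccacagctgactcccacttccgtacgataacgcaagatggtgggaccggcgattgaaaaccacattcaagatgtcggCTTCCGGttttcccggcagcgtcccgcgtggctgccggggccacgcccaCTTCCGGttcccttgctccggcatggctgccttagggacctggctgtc
Mrps18c: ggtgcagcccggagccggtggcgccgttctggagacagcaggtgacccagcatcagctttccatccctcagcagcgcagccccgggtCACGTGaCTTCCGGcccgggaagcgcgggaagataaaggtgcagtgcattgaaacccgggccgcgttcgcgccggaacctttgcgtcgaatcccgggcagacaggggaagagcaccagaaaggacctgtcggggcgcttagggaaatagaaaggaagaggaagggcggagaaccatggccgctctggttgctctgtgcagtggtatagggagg

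The members were expressed at a similar summed level in all 8 control libraries and at a higher one in the induced libraries. Summed over the 78 genes, the level was 716, 674, 716 and 659.8 CPM in the juvenile libraries and 696, 648, 676 and 678 CPM in the adult libraries. It was 1502 and 1402 CPM in the *c-Myc* libraries and 1399 and 1321 CPM in the *c-Myc* + *R172H* libraries. The 4 induced libraries lay above all 8 controls. Group means were 691 ± 29.0 CPM for juvenile and 674 ± 20.0 CPM for adult libraries (SD, n = 4 each), and 1452 ± 71.2 CPM for *c-Myc* and 1359.8 ± 55.5 CPM for *c-Myc* + *R172H* libraries (SD, n = 2 each). As a share of all counts the members made up 0.0456 to 0.0701% of control and 0.179 to 0.222% of induced libraries, and after leaving out *Col1a1*, *Col1a2* and *Gm26917* 0.110 to 0.144% and 0.332 to 0.360%.

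**Figure D1:**
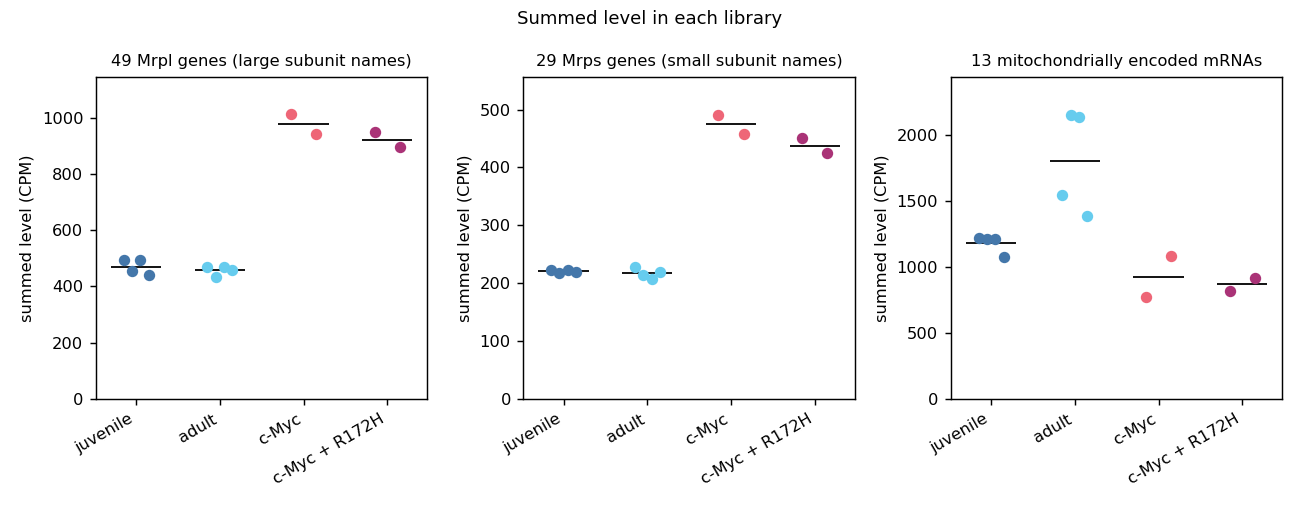
Summed level in CPM (y axis) of the 49 *Mrpl* genes, the 29 *Mrps* genes and the 13 mitochondrially encoded mRNAs in each library (points) of the 4 groups, with group means as bars. The *Mrpl* and *Mrps* sums lie higher in all 4 induced libraries than in the 8 controls, while the sum of the mitochondrially encoded mRNAs is highest in adult libraries. Of these 13 mRNAs 7 passed the filter on low counts, and the others were at 0 or close to it.

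The ratio of large to small subunit names differed little between libraries. The *Mrpl* sum divided by the *Mrps* sum was 2.13 ± 0.0921 in juvenile and 2.11 ± 0.108 in adult libraries (SD, n = 4 each), and 2.06 to 2.11 in the 4 induced libraries. The induced values lay within the range of the controls, 2.02 to 2.27.

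Per kb of transcript, members differed among themselves far more than between ages. The median member was at 4.75 CPM per kb in juvenile and 4.66 CPM per kb in adult osteoblasts, against 3.59 and 3.66 for all genes tested. In juvenile libraries the levels ran from 0.796 CPM per kb (*Mrps25*) to 48.9 CPM per kb (*Mrpl52*). The next highest were *Mrpl33* at 20.7 and *Mrps34* at 19.98 CPM per kb, and the next lowest *Mrps35* at 0.888 and *Mrpl35* at 1.01 CPM per kb, among the members that passed the filter on low counts in the age comparison. These products enter one particle in equal numbers for most proteins, but the mRNA levels per kb spanned a wide range. Part of this order depends on the transcript chosen: on the summed length of all annotated exons, *Mrps28* and *Mrpl34* took the places after *Mrpl52*, and *Mrps35*, *Mrps10* and *Mrps9* were the lowest. *Mrpl23* and *Mrps36* did not pass that filter. *Mrps36*, whose protein belongs to the 2-oxoglutarate dehydrogenase complex rather than to the ribosome, had 3, 7, 7 and 9 counts in juvenile and 2, 0, 0 and 14 counts in adult libraries. *Mrpl23*, a protein of the large subunit, had 20, 15, 3 and 1 counts in juvenile and 3, 6, 6 and 13 counts in adult libraries. At this depth neither could be compared between ages.

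The age comparison asked whether osteoblasts of the growing and the mature metaphysis differ. No member did so by the test used. Of 76 members tested, 0 were higher and 0 lower in juvenile than in adult osteoblasts by edgeR's quasi-likelihood test at an adjusted p of 0.05, when 1.89% of the 11345 genes tested were called higher and 3.23% lower. At an unadjusted p under 0.05 there were 3 members higher and 2 lower, beside 1028 and 1205 of the 11345 genes, and DESeq2 also called 0 members. The median log2 fold change, juvenile over adult, was -0.004 for the members and 0.001 for all genes tested, and 38 members had a positive and 38 a negative value. For 52 of 76 members the 95% interval lay within a log2 fold change of -1 to 1, and the median half-width of the interval was 0.63. Smaller differences could be missed with these 8 libraries. Differences of that size could be missed too: of genes with a simulated log2 fold change of 1 in this design, 103 of 196 were called.

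The groups did not overlap for 5 members, which are named here after their values were seen: *Mrps22*, *Mrps34* and *Mrpl39* with higher juvenile values, *Mrps6* and *Mrps21* with lower ones. Over all genes, groups did not overlap with higher juvenile values in 6.17% and with lower ones in 6.75%. *Mrps6*, a small-subunit protein with a bacterial relative, was at 4.84, 6.29, 5.15 and 5.71 CPM in juvenile and 10.3, 8.13, 6.86 and 14.5 CPM in adult libraries. Its log2 fold change was -0.87 ± 0.29 (SE), with an adjusted p of 0.095. It shares exon sequence on the same strand with *Slc5a3*, so reads of either could be missed or misassigned. *Mrps34*, a protein of the small subunit without a bacterial relative, was at 15.3, 14.9, 27.3 and 15.9 CPM in juvenile and 10.4, 12.2, 8.41 and 14.7 CPM in adult libraries. The age difference was 0.66 on the log2 scale with an adjusted p of 0.13, and 1 juvenile library stood above the other 3.

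The members named for their roles had log2 fold changes between -0.39 (*Mrps18c*) and 0.66 (*Mrps34*) with age. *Mrpl10* and *Mrpl12*, which form the stalk that recruits translation factors, were at 17.4 to 23.3 and 15.9 to 20.0 CPM in juvenile libraries. In adult libraries they were at 15.9 to 19.9 and 11.97 to 20.0 CPM. Their ranges overlapped between the ages.

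The comparison of *c-Myc*-induced with juvenile osteoblasts covered induction of the oncogene together with the other differences of these mice named above. Mitochondrial ribosomal protein genes rose broadly and in both subunits. Of 78 members tested, 59 were called higher and 0 lower at an adjusted p of 0.05 by edgeR's test, while 28.4% of the 12588 genes tested were called higher and 25.0% lower. A log2 fold change of at least 1 was reached by 47 of the called members, against 18.4% of all genes. The median log2 fold change was 1.16 for the members and 0.04 for all genes tested. By name, 38 of 49 *Mrpl* genes were called, with a median of 1.15, and 21 of 29 *Mrps* genes, with a median of 1.17. All *c-Myc* libraries lay above all juvenile libraries in 63 members and below them in 0, against 35.7% and 28.7% of all genes. The counts rest on 2 *c-Myc* libraries. Without the first of them the members' median was 1.04, and without the second 1.19. Fewer members and fewer genes overall were called in these 2 fits. By library totals 74 members were called higher, with a median of 1.98, when 54.0% of all genes were called higher, and the members' median lay 1.11 above that of all genes, beside 1.12 on the TMM scale.

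**Figure D2:**
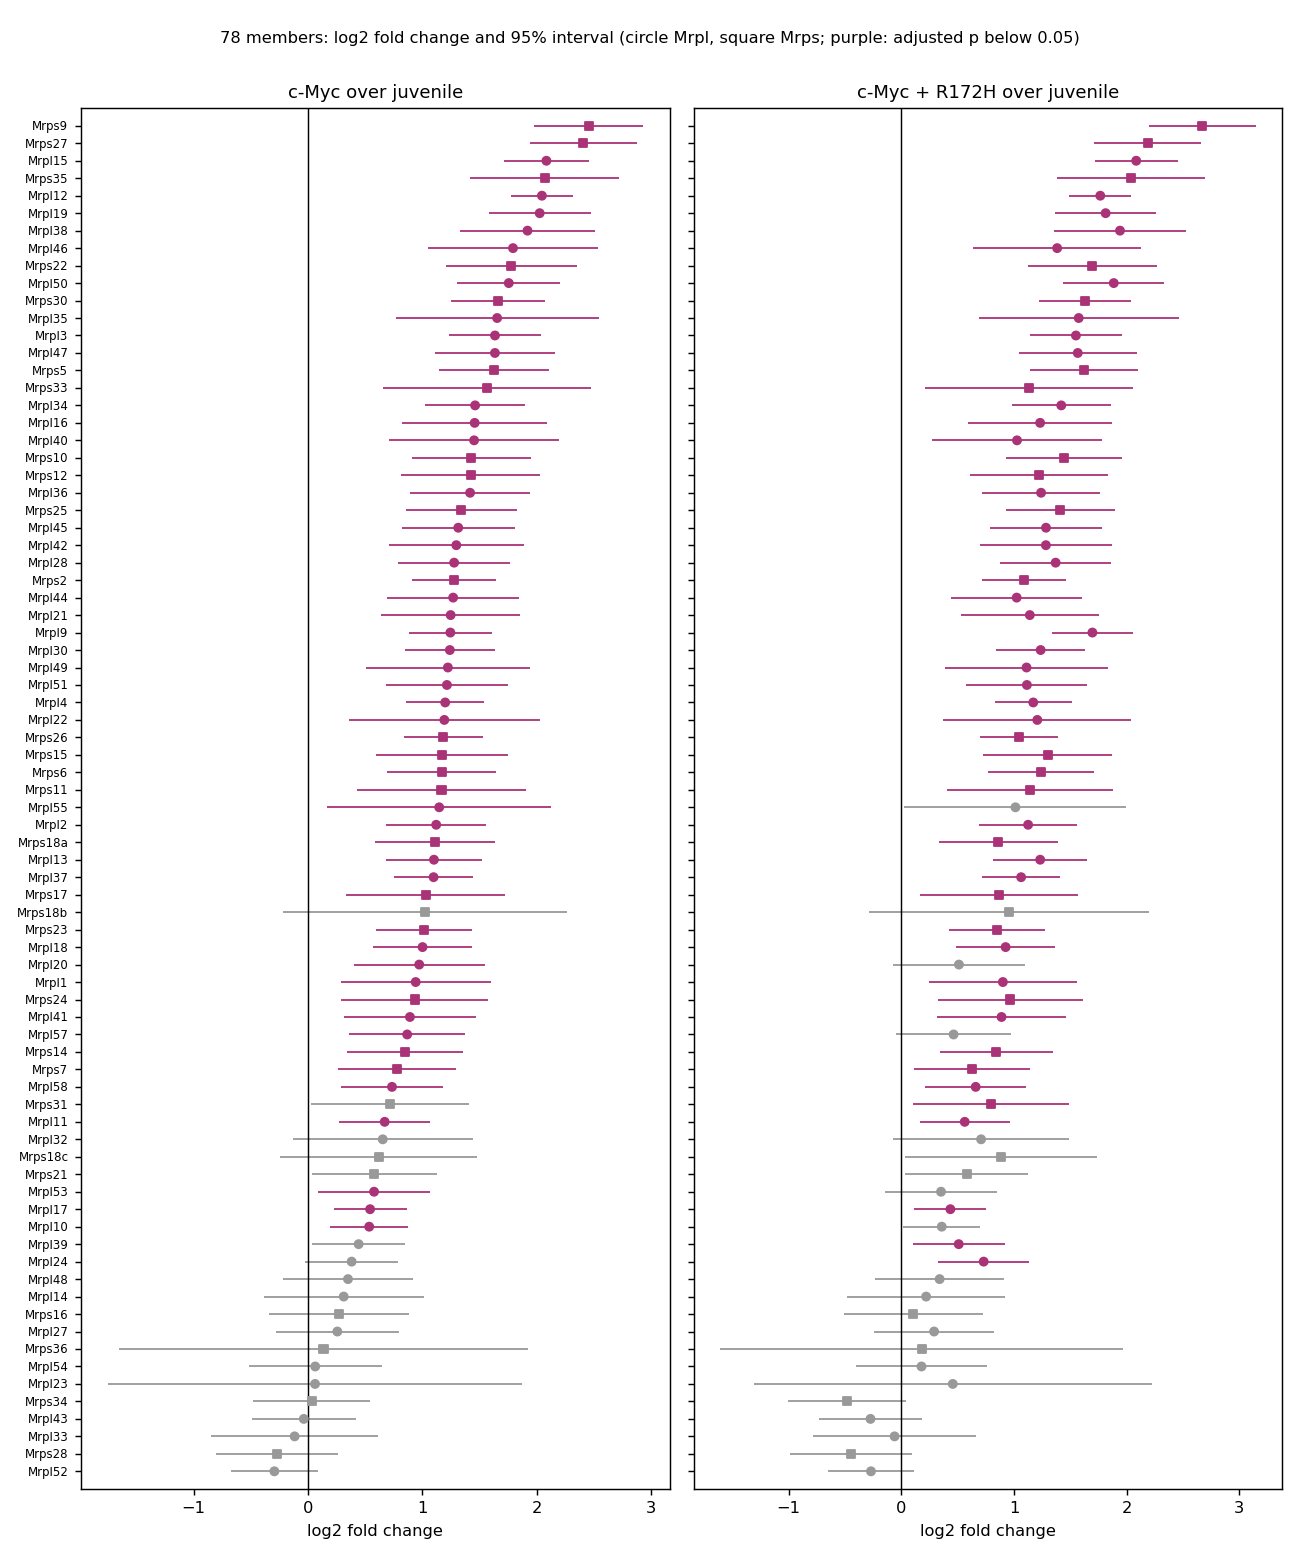
Log2 fold change (x axis) of each of the 78 members with its 95% interval, in *c-Myc* over juvenile (left) and *c-Myc* + *R172H* over juvenile (right), ordered by the left panel. Circles are *Mrpl* and squares *Mrps* genes, and purple marks members called higher. The values run from *Mrps9* at the top to *Mrpl52* at the bottom, and no member was called lower. Both panels use the same 4 juvenile libraries.

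The largest rises were those of *Mrps9*, *Mrps27* and *Mrpl15*. *Mrps9*, the small-subunit protein related to bacterial S9, was at 3.65, 2.99, 2.78 and 4.35 CPM in juvenile and 18.5 and 20.1 CPM in *c-Myc* libraries. That was a log2 fold change of 2.45 ± 0.22 (SE), with an adjusted p of 1.5e-06. *Mrps27*, a small-subunit protein specific to mitochondria, was at 5.11, 4.23, 5.70 and 3.11 CPM in juvenile and 25.7 and 23.4 CPM in *c-Myc* libraries. Both genes sat well above every control library after induction. Their adult libraries were at 2.71 to 7.04 and 2.59 to 4.48 CPM. The log2 fold change of *Mrps27* was 2.41 ± 0.22 (SE), with an adjusted p of 1.6e-06. *Mrpl15*, related to bacterial L15 of the large subunit, was at 7.03, 7.12, 9.87 and 7.83 CPM in juvenile and 33.2 and 34.9 CPM in *c-Myc* libraries. Its log2 fold change was 2.09 ± 0.17 (SE), with an adjusted p of 6.8e-07. *Mrps27* overlaps exons of another gene on the opposite strand, and the strand setting of the counting was not stated.

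Genes of the stalk and its base rose unequally. *Mrpl12*, which binds the stalk protein MRPL10 and also the mitochondrial RNA polymerase, was at 20.0, 15.9, 18.1 and 16.1 CPM in juvenile and 78.2 and 69.2 CPM in *c-Myc* libraries. *Mrpl12* thus had a log2 fold change of 2.05 ± 0.13 (SE), with an adjusted p of 7.6e-08. *Mrpl10* was at 23.3, 21.4, 17.4 and 22.6 CPM in juvenile and 32.7 and 29.8 CPM in *c-Myc* libraries. Its groups did not overlap either, but the change was smaller, 0.54 ± 0.16 (SE) on the log2 scale with an adjusted p of 0.011. *Mrpl11*, at the base of the stalk, was at 10.9, 8.87, 11.1 and 11.2 CPM in juvenile and 17.9 and 16.05 CPM in *c-Myc* libraries. Its log2 fold change was 0.67 with an adjusted p of 0.0079. The 95% interval of *Mrpl12* (1.77 to 2.32) lay above those of *Mrpl10* (0.20 to 0.88) and *Mrpl11* (0.27 to 1.07). Without the first *c-Myc* library *Mrpl10* and *Mrpl11* did not pass the test, at adjusted p of 0.13 and 0.11.

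Other members with known roles were mostly higher. *Mrps12*, the protein of the decoding site, was at 3.62 to 7.58 CPM in juvenile and 15.4 and 16.03 CPM in *c-Myc* libraries, a log2 fold change of 1.43 with an adjusted p of 9.0e-04. *Mrpl44*, a large-subunit protein with an RNase III fold, was at 3.34 to 7.33 CPM in juvenile and 14.3 and 15.5 CPM in *c-Myc* libraries, and its log2 fold change was 1.27. *Mrpl58*, a peptidyl-tRNA hydrolase built into the large subunit, rose by less. Its level was 9.07 to 15.7 CPM in juvenile and 20.1 and 22.2 CPM in *c-Myc* libraries, with a log2 fold change of 0.74 and an adjusted p of 0.0092. Without the second *c-Myc* library that value was 0.67 with an adjusted p of 0.082.

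*Mrps30* and *Mrps18a* carry small-subunit names, although their proteins sit in the large subunit. *Mrps30* was at 8.04, 8.36, 5.84 and 6.58 CPM in juvenile and 22.9 and 23.8 CPM in *c-Myc* libraries, a log2 fold change of 1.66 ± 0.19 (SE). *Mrps18a* is one of 3 paralogues whose proteins take different places in the ribosome. It was at 4.72 to 7.53 CPM in juvenile and 12.5 and 14.3 CPM in *c-Myc* libraries, and its log2 fold change of 1.11 passed the test (adjusted p = 0.0018). *Mrps18b* and *Mrps18c* did not pass it. *Mrps18b* was at 3.65, 1.34, 2.64 and 12.7 CPM in juvenile and 10.3 and 10.4 CPM in *c-Myc* libraries. One juvenile library stood above all others of its group, and without it the log2 fold change was 1.98 with an adjusted p of 3.2e-04, against 1.02 and 0.15 with it. *Mrps18c* was at 8.77, 4.95, 2.36 and 3.60 CPM in juvenile and 8.68 and 7.03 CPM in *c-Myc* libraries. Without the first juvenile library its log2 fold change was 1.07 with an adjusted p of 0.018, against 0.62 and 0.21 with it.

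**Figure D3:**
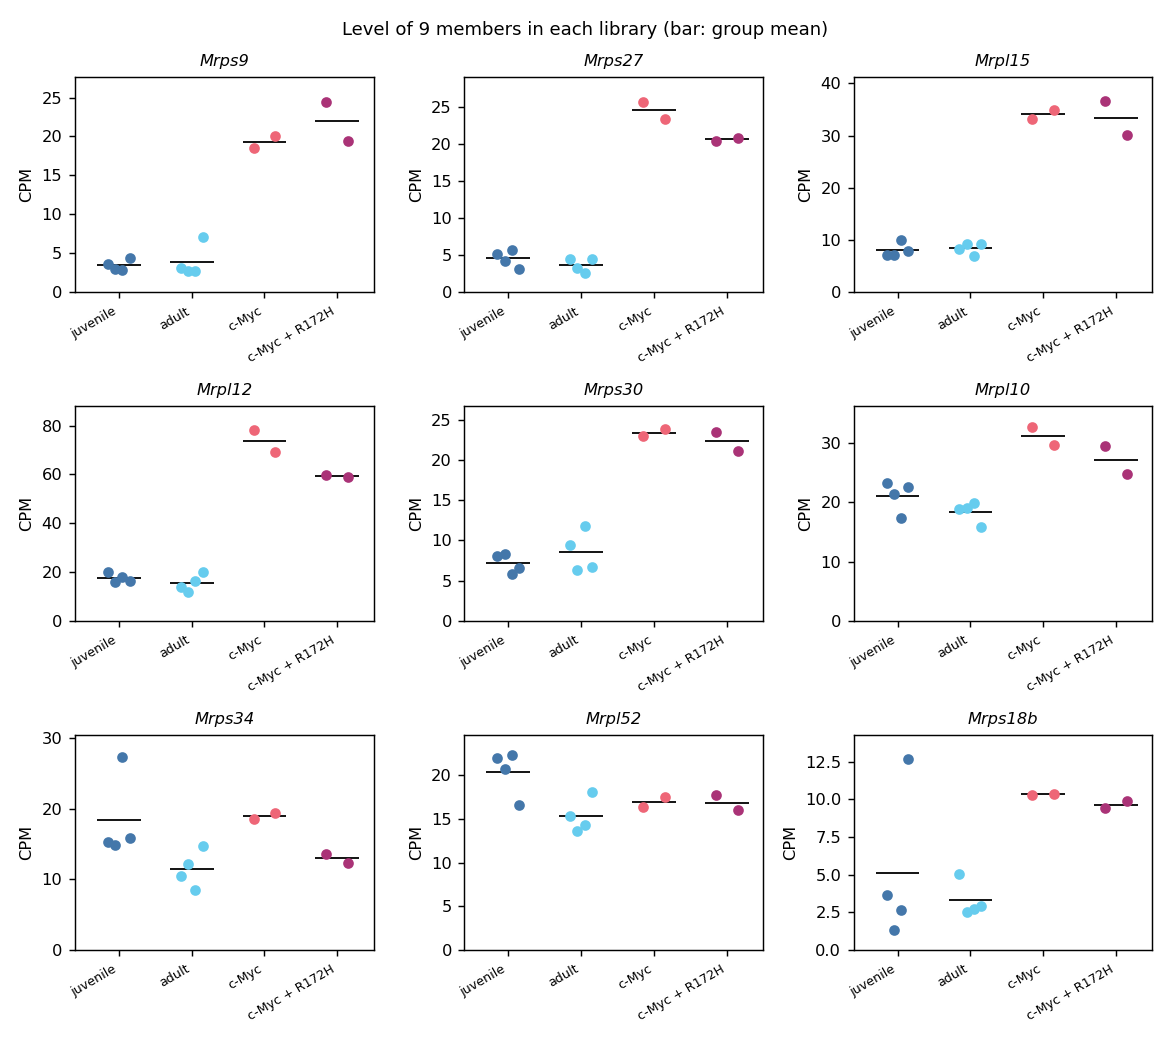
Level in CPM (y axis, from 0) of 9 members in each library (points), with group means as bars. *Mrps9*, *Mrps27*, *Mrpl15*, *Mrpl12*, *Mrps30* and *Mrpl10* are higher in all induced than in all juvenile libraries, *Mrps34* and *Mrpl52* are not, and *Mrps18b* has 1 juvenile library at 12.7 CPM above the other 3.

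Of the members, 19 did not pass the test with *c-Myc*. They included *Mrpl52*, the highest per kb in juvenile osteoblasts, at 22.0, 20.7, 22.4 and 16.6 CPM in juvenile and 16.4 and 17.5 CPM in *c-Myc* libraries. Its log2 fold change was -0.29, with a 95% interval of -0.67 to 0.09. Without the fourth juvenile library it was -0.38 with an adjusted p of 0.046, and by library totals, which raised all genes alike, it was 0.53 with an adjusted p of 0.044, below the median of all genes on that scale (0.87). *Mrpl33*, a short large-subunit protein, was at 15.0, 5.16, 10.2 and 9.32 CPM in juvenile and 10.5 and 8.11 CPM in *c-Myc* libraries, with a 95% interval of the log2 fold change from -0.85 to 0.61. *Mrps34* was at 18.5 and 19.3 CPM in *c-Myc* libraries, within its juvenile range, and the interval was -0.48 to 0.55. *Mrps34* shares exon sequence with *Nme3* on the same strand and with *Mapk8ip3* on the other. In all, 29 of the 78 members overlap an exon of another counted gene, 27 of them on the opposite strand, and their counts are less certain. For *Mrps36* and *Mrpl23* the intervals were -1.65 to 1.92 and -1.75 to 1.87, too wide to bound a change.

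With mutant p53 in addition to *c-Myc*, the members again lay above juvenile controls. In *c-Myc* + *R172H* over juvenile osteoblasts 57 of 78 members were called higher and 0 lower, where 30.4% of the 12588 genes were called higher and 26.3% lower, and 42 of those called reached a log2 fold change of at least 1, against 19.6% of all genes. All *c-Myc* + *R172H* libraries lay above all juvenile libraries in 61 members and below them in 1, *Mrps34* (log2 fold change -0.48, but 0.57 by library totals), against 36.6% and 30.1% of all genes. The median was 1.05 for the members and 0.08 for all genes. This comparison uses the same 4 juvenile libraries as that of *c-Myc*, so the values are not independent. Without the first *c-Myc* + *R172H* library the members' median was 1.02, and without the second 1.06, with fewer members and fewer genes overall called. By library totals 75 members were called higher, with a median of 2.09, when 60.9% of all genes were. *Mrps9* was at 24.5 and 19.4 CPM in *c-Myc* + *R172H* libraries, a log2 fold change over juvenile of 2.67 ± 0.22 (SE). *Mrps27* was at 20.4 and 20.7 CPM, with a log2 fold change of 2.19, and *Mrpl15* at 36.7 and 30.1 CPM, with one of 2.08. All 3 were above every control library. *Mrpl12* was at 59.9 and 59.0 CPM, a log2 fold change over juvenile of 1.77. *Mrps25* and *Mrps35*, low per kb in controls, had log2 fold changes of 1.41 and 2.04, beside 1.34 and 2.07 with *c-Myc* alone. *Mrpl35* had 1.57 beside 1.65, and without the first *c-Myc* + *R172H* library it did not pass the test (1.39, adjusted p = 0.055). *Mrpl10* did not pass the test over juvenile here (0.36, adjusted p = 0.069).

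The direct comparison of *c-Myc* + *R172H* with *c-Myc* osteoblasts asked what the p53 mutant adds. No member passed the test, with 0 called in either direction by edgeR and by DESeq2, when 0.00794% of all genes were called higher and 0.461% lower by edgeR. At an unadjusted p under 0.05 there were 1 member higher and 0 lower, beside 78 and 511 of the 12588 genes. The median log2 fold change was -0.04 for the members and -0.003 for all genes, and 54 of 78 members had a negative value, beside 6386 of the 12588 genes. By library totals the medians were 0.16 for the members and 0.21 for all genes. The groups of 2 did not overlap with higher values in 5 members and with lower ones in 27, against 17.5% and 27.5% of all genes. For 67 members the 95% interval lay within -1 to 1, with a median half-width of 0.59. The 1 member with an unadjusted p under 0.05, named after its value was seen, was *Mrpl9*, a large-subunit protein with a bacterial relative. It was at 32.7 and 36.7 CPM in *c-Myc* and 46.7 and 46.2 CPM in *c-Myc* + *R172H* libraries, a log2 fold change of 0.45 (interval 0.04 to 0.86, adjusted p = 0.89). *Mrps34* was at 18.5 and 19.3 CPM in *c-Myc* and 13.6 and 12.3 CPM in *c-Myc* + *R172H* libraries. Its groups did not overlap, but its log2 fold change of -0.52 had an interval of -1.10 to 0.07. *Mrpl12* had a log2 fold change of -0.28 with an interval of -0.59 to 0.03. In a fit of these 4 libraries alone 2 members were called higher and 2 lower, *Mrpl12* and *Mrps34* being the lower ones, and 189 genes of 12170 were called higher and 440 lower.

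**Figure D4:**
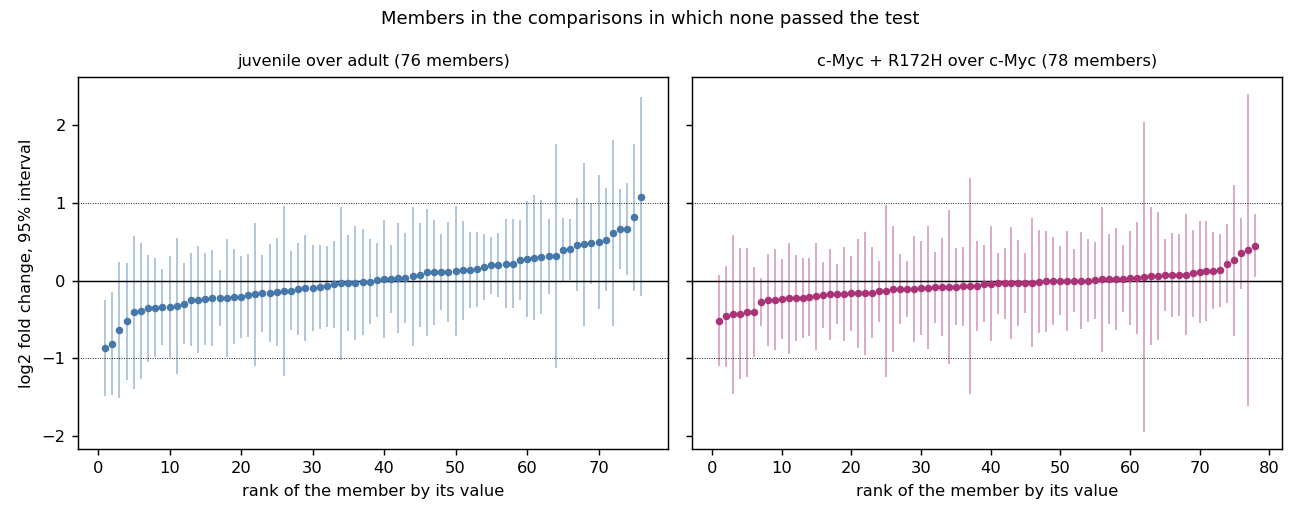
Log2 fold change (y axis) with 95% interval of the members, ranked by value (x axis), in juvenile over adult (76 members, left) and *c-Myc* + *R172H* over *c-Myc* (78 members, right). Dotted lines mark -1 and 1. Values lie on both sides of 0 in both panels, and 52 and 67 intervals stay within the dotted lines.

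The size of the rise with *c-Myc* differed with the level in adult control libraries. No level before induction was measured in the induced mice. The level in adult libraries was used for this description, since these libraries did not enter the *c-Myc* comparison, and the relation was looked for with results of these data known. Among the 20 members with the highest adult level per kb (10.5 to 36.8 CPM per kb), 11 were called higher, with a median log2 fold change of 0.58. Among the 20 lowest (0.605 to 2.66 CPM per kb), 16 were called, with a median of 1.59. Over all genes tested, at any level, 28.4% were called higher. Across the 78 members the Spearman correlation of the change with the adult level per kb was -0.43, and across 12486 genes tested it was -0.19. Without division by length it was -0.36 for the members, and with the summed exon length -0.39. The highest members also had the shortest transcripts, with a median of 0.882 kb against 3.34 kb for the lowest, and the change had a Spearman correlation of 0.33 with transcript length among the members and of -0.12 among all genes. Level and length cannot be told apart here, and all points share the same libraries and depth. With *c-Myc* + *R172H* the corresponding correlation with the adult level per kb was -0.39 for the members.

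**Figure D5:**
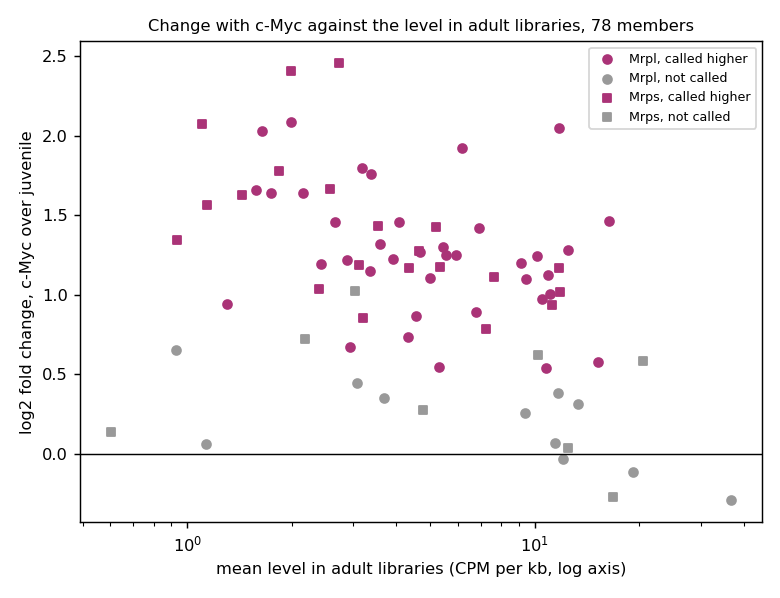
Log2 fold change in *c-Myc* over juvenile (y axis) against the mean level in adult libraries (x axis, CPM per kb of transcript, log axis) for each of the 78 members. Circles are *Mrpl* and squares *Mrps* genes, and purple marks members called higher. The points at the right, above 10.5 CPM per kb, have a median of 0.58, and those at the left, below 2.66 CPM per kb, one of 1.59.

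Members were also counted by their descent, with a bacterial relative or specific to mitochondria. In *c-Myc* over juvenile, 24 of 30 *Mrpl* genes with names of bacterial families were called higher and 16 of 21 specific to mitochondria, *Mrps18a* and *Mrps30* being counted with the large subunit. For the small subunit these counts were 12 of 17 and 7 of 9, and *Mrps36* was counted in none. The share over all genes was 28.4%.

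Subunits of the same ribosome that carry other names rose as well. Of 5 such genes, 4 were called higher with *c-Myc* and 5 with *c-Myc* + *R172H*, against 28.4% and 30.4% of all genes. With either *c-Myc* + *R172H* library left out, fewer of these 5 and fewer genes overall were called higher over juvenile. *Ptcd3*, a small-subunit protein with pentatricopeptide repeats, was at 6.12, 5.37, 7.37 and 7.95 CPM in juvenile and 41.8 and 36.5 CPM in *c-Myc* libraries, a log2 fold change of 2.54. *Gadd45gip1*, a large-subunit protein, had 1.96, and *Chchd1*, a small-subunit protein, 0.84. *Aurkaip1*, also of the small subunit, had 0.32 and did not pass the test with *c-Myc* (adjusted p = 0.087). In the age comparison 0 of 5 were called, when 1.89% of all genes were called higher and 3.23% lower.

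Of 16 mitochondrial translation factors tested, 10 were called higher and 0 lower with *c-Myc*, against 28.4% and 25.0% of all genes. *Tufm*, the elongation factor that brings aminoacyl-tRNA to the ribosome, was at 14.8, 11.2, 12.4 and 9.44 CPM in juvenile and 79.1 and 72.1 CPM in *c-Myc* libraries. The log2 fold change of *Tufm* was 2.63 ± 0.15 (SE). *Lrpprc*, which stabilises mitochondrial mRNAs, had a log2 fold change of 2.57. *Mtfmt*, which formylates the initiator tRNA, and *Mtif2*, an initiation factor, did not pass the test, with 0.11 and 0.38. Of 24 genes of mitoribosome assembly and rRNA modification, 11 were called higher, and 7 without the first *c-Myc* library. *Fastkd2*, which binds mitochondrial 16S rRNA, had a log2 fold change of 3.02 from 0.556 to 4.57 CPM in juvenile libraries to 18.04 and 14.4 CPM. *Mrm3*, a methyltransferase of the same RNA, had 2.73, while *Mterf3* and *Mrm2* had 0.11 and 0.15 and did not pass the test. In the age comparison 0 genes of either list were called, when 1.89% of all genes were called higher and 3.23% lower.

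Genes that copy and transcribe mitochondrial DNA followed with 6 of 9 called higher with *c-Myc* and 0 lower. Over all genes tested these shares were 28.4% and 25.0%. *Ssbp1*, which coats single-stranded mitochondrial DNA, had a log2 fold change of 2.14, and *Tefm*, an elongation factor of transcription, 1.53. *Polg*, the DNA polymerase, rose by 0.48, and *Mterf1a* had -0.62 and did not pass the test. *Tfam* and *Polrmt*, named after their values were seen as the packaging factor and the RNA polymerase, had 1.29 and 1.25, and both passed it. Of 8 regulators of mitochondrial biogenesis, 5 were called higher, and 3 without the first *c-Myc* library. *Ppargc1b*, a coactivator, was at 0.822 to 2.89 CPM in juvenile and 11.1 and 11.6 CPM in *c-Myc* libraries, a log2 fold change of 2.55. *Ppargc1a* stayed under 1 CPM in all 12 libraries. *Nrf1* and *Gabpb1* had log2 fold changes of 0.43 and 0.50 and did not pass the test. *Gabpa* and *Yy1*, named after their values were seen because their motifs were searched above, had 0.72 and 0.67 and passed it. With *c-Myc* + *R172H* over juvenile, which shares its controls with the *c-Myc* comparison, 10 of 16 translation factors, 12 of 24 assembly genes, 7 of 9 genes of mitochondrial DNA and 5 of 8 regulators were called higher, and 1 assembly gene, *Ngrn*, was called lower (-0.70). Over all genes tested in that comparison 30.4% were called higher and 26.3% lower. With either *c-Myc* + *R172H* library left out, fewer genes of mitochondrial DNA and fewer genes overall were called higher. No assembly gene was then called lower. Over *c-Myc* alone, 0 genes of these lists were called, when 0.00794% of all genes were called higher and 0.461% lower.

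The mRNAs that these ribosomes translate did not rise with the ribosomal protein genes on the TMM scale. Of the 13 mitochondrially encoded mRNAs, 7 passed the filter, *mt-Co2*, *mt-Co3*, *mt-Atp6* and *mt-Atp8* were listed at 0 in every library, and *mt-Nd3* and *mt-Nd4l* were at 0 or close to it. The ribosomal RNAs mt-Rnr1 and mt-Rnr2 were not analysed here. With *c-Myc* 1 of 7 was called higher and 4 lower (median -0.68 on the log2 scale), against 28.4% and 25.0% of all genes. By library totals, however, 3 were called higher and 0 lower (median 0.14). On that scale 54.0% of all genes were called higher and their median was 0.87. *mt-Nd4*, a subunit of complex I, was at 52.2, 55.0, 50.5 and 55.5 CPM in juvenile and 24.8 and 33.0 CPM in *c-Myc* libraries. The log2 fold change of *mt-Nd4* was -0.91 ± 0.15 (SE). *mt-Co1*, a subunit of cytochrome oxidase, was at 499 to 604 CPM in juvenile and 438 and 619 CPM in *c-Myc* libraries and did not pass the test (log2 fold change -0.15), and neither did *mt-Nd2* (-0.16). By library totals both were called higher, at 0.67 and 0.66, and *mt-Nd4* was at -0.08 and did not pass the test. *mt-Nd6*, encoded on the strand opposite to the other mRNAs, was the 1 called higher, at 6.58 to 10.7 CPM in juvenile and 16.3 and 23.3 CPM in *c-Myc* libraries. With age, 4 of 7 were called lower in juvenile osteoblasts and 0 higher, with a median of -0.59, against 3.23% and 1.89% of all genes. By library totals *mt-Nd1* and *mt-Nd4* were called lower as well, at -0.64 and -0.94. On that scale 792 of 11345 genes were called lower and the median of all genes was -0.24. Without any 1 juvenile library, or without the second or the third adult library, 2 of 7 were called, and without the fourth adult library 6. *mt-Nd2* was at 53.7, 59.7, 58.8 and 45.5 CPM in juvenile and 98.4, 124, 153 and 91.8 CPM in adult libraries, a log2 fold change of -1.11 with an adjusted p of 7.2e-04. No member of the nuclear set was called in that comparison.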

How the data were processed

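Per the labels and the study's methods, the authors used bcl2fastq 2.20 for demultiplexing, cutadapt 4.6 for trimming, STAR 2.7.11a for alignment (mm10) and HTSeq 2.0.5 for counting, in which a read had to map to 1 place. They deposited raw counts, without normalization, for all 12 libraries. The GENCODE releases named for alignment and counting differ, and the strand setting is not given in the sources used here.

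Libraries were grouped by title. Counts were fitted with edgeR 4.0.16 in R 4.3.3 (TMM, default expression filter, robust quasi-likelihood fit, F test), and p-values were adjusted over all genes tested by Benjamini-Hochberg, with calls at 0.05. The age fit used 8 libraries. The *c-Myc* comparisons shared a fit of 8 (juvenile and both induced groups). SEs were approximated from the size of the log2 fold change and its F statistic (size over root F), and intervals (95%) rest on them. CPM use 1 TMM scaling over 12 libraries. Transcript lengths and overlaps are from GENCODE on GRCm38, with 1 principal transcript a gene. This length replaced the summed exon length after values were seen. Replicate libraries differed beyond counting noise (chi-square per degree of freedom 5.45 to 136).

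The members, gene lists, motifs and tests were chosen with earlier results of these data known. Named genes were members with chosen roles, up to 3 called members with the largest change in each direction whose groups did not overlap, the 3 highest and 3 lowest per kb in juvenile libraries, members that failed the filter, *Myc*, and up to 2 genes with the largest and 2 with the smallest change of each other list.

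The fits were tested on simulated data in which some genes had a log2 fold change of 1. In the age design 103 of 196 changed genes were called, with 10 of 10926 unchanged genes called, 8.85% of all calls. In *c-Myc* over juvenile these were 101 of 198 and 6 of 12072 (5.61%), in *c-Myc* + *R172H* over juvenile 79 of 196 and 5 of 12110 (5.95%), and in *c-Myc* + *R172H* over *c-Myc* 76 of 197 and 11 of 12058 (12.6%). The share of false calls was thus above the nominal 5% in each single draw. The condition that ended the test had first been 5% and was loosened after it was not met.

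Alternatives were RLE, upper-quartile and library-total scaling, leaving out *Col1a1*, *Col1a2* and *Gm26917*, other filters and sets of libraries, a replicate block, DESeq2 1.42.0 and each library left out.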

Additional observations from a re-analysis of the deposited data

Results flagged for a closer look

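In groups of 4 libraries, the highest or lowest was compared with the others by Dixon's ratio at its 95% critical value. Of 52 groups of values examined, 9 passed, and chance passes about 5%. In juvenile libraries the lowest value stood apart for *Mrpl11* (8.87 CPM), *Mrpl44* (3.34 CPM), *Mrps25* (4.02 CPM) and the summed mitochondrially encoded mRNAs (1075 CPM), and the highest for *Mrps34* (27.3 CPM). In adult libraries the lowest stood apart for *Mrpl58* (8.81 CPM), and the highest for *Mrps18b* (5.06 CPM), *Mrps36* (1.49 CPM, 14 counts) and *Mrps9* (7.04 CPM). Over all members and both groups, 14 of 156 sets of 4 libraries passed. The part of library quality in these values was not tested.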

How the results depend on the processing

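Counts depended on the libraries kept and on the scaling. By library totals 74 members were called higher in *c-Myc* and 75 in *c-Myc* + *R172H* over juvenile, when 54.0% and 60.9% of all genes were. Leaving out 1 library at a time, 44 to 60 members were called higher and 0 to 1 lower in *c-Myc* over juvenile (1 without the fourth juvenile library), and 37 to 59 higher and 0 to 1 lower in *c-Myc* + *R172H* over juvenile (37 without its first library, 1 lower without the second or the fourth juvenile library). The lone library left is then assumed to vary like the other groups. Where a library of the induced group compared was left out, fewer genes overall were called higher as well. Without the fourth juvenile library, 60 members and 29.9% of all genes were called higher in *c-Myc* over juvenile. Without the third, 59 members and 31.7% of all genes were called higher in *c-Myc* + *R172H* over juvenile. With all libraries these shares of all genes were 28.4% and 30.4%. In all 18 alternatives 42 of the 59 and 35 of the 57 calls held. With age, 1 member, *Mrps6*, was called lower by library totals and 1 in a fit of all 12 libraries. By library totals 792 of 11345 genes were called lower, with a median of -0.24 over all genes. In the fit of all 12 libraries 633 of 13005 were called lower. In a fit of only the 2 groups, *c-Myc* + *R172H* over *c-Myc* had 2 members called higher and 2 lower, beside 189 and 440 of 12170 genes. The causes were not tested. Members of low counts, such as *Mrpl23* and *Mrps36*, are limited by depth.

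The labels do not say what a replicate number marks, and deviations of same-numbered libraries correlated weakly. With a replicate block, 63 members were called higher in *c-Myc* over juvenile, 60 in *c-Myc* + *R172H* over juvenile and 0 in the other comparisons. In the *c-Myc* and the *c-Myc* + *R172H* comparison with juvenile, 32.1% and 33.9% of all genes were called higher with it.

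Of 1450 values of named members under alternatives, 1357 kept direction and side of the threshold, and 60 changed sign, 4 of them with a call. By library totals, log2 fold changes with age were -0.033 for *Mrpl10*, -0.023 for *Mrpl11*, -0.080 for *Mrpl12*, -0.090 for *Mrpl58* and -0.12 for *Mrpl33*. By library totals, *c-Myc* over juvenile gave 0.53 for *Mrpl52* (called) and 0.71 for *Mrpl33*, and *c-Myc* + *R172H* over juvenile gave 0.57 for *Mrps34*, 0.77 for *Mrpl52* and 0.97 for *Mrpl33* (all 3 called). By the same scaling, *c-Myc* + *R172H* over *c-Myc* gave 0.032 for *Mrpl10*, 0.10 for *Mrpl11*, 0.0072 for *Mrps12*, 0.14 for *Mrpl58*, 0.14 for *Mrps18b*, 0.18 for *Mrps30*, 0.21 for *Mrpl15*, 0.18 for *Mrps35* and 0.14 for *Mrpl35*. Upper-quartile scaling gave -0.042 for *Mrps34* and -0.0076 for *Mrpl23* in *c-Myc* over juvenile, and 0.010 for *Mrpl15* in *c-Myc* + *R172H* over *c-Myc*. The replicate block gave -0.68 and -0.30 for *Mrpl23* in *c-Myc* and in *c-Myc* + *R172H* over juvenile. In *c-Myc* + *R172H* over *c-Myc*, *Mrpl52* had -0.0048 with all 12 libraries and *Mrpl15* 0.0079 in the fit of these groups alone.

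Leaving out 1 library, these values crossed 0. With age they were -0.17 to 0.33 for *Mrpl33*, -0.26 to 0.054 for *Mrpl44*, -0.37 to 0.93 for *Mrps18b* and -0.31 to 0.28 for *Mrps9*. In *c-Myc* over juvenile they were -0.30 to 0.55 for *Mrpl23*, -0.34 to 0.18 for *Mrpl33*, -0.056 to 0.27 for *Mrps34* and -0.94 to 0.72 for *Mrps36*. In *c-Myc* + *R172H* over juvenile they were -0.28 to 0.23 for *Mrpl33* and -0.12 to 0.43 for *Mrps36*. In *c-Myc* + *R172H* over *c-Myc* they were -0.17 to 0.10 for *Mrpl15*, -0.038 to 0.68 for *Mrpl23*, -0.14 to 0.23 for *Mrpl33*, -0.28 to 0.051 for *Mrpl35*, -0.072 to 0.061 for *Mrpl52*, -0.084 to 0.16 for *Mrps25*, -0.14 to 0.0042 for *Mrps30*, -0.12 to 0.0055 for *Mrps35* and -0.58 to 1.09 for *Mrps36*.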
